A study of Homo sapiens with 48 samples.

Results

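Embryoid bodies (EB) are aggregates of pluripotent cells that differentiate without an imposed lineage signal. The 32 EB libraries of the series, of 48 in all, were selected by their titles and compared with the 4 libraries of untreated human embryonic stem cells (hESC) of the same line, WA09 (also called H9), an established line with a genotype given as normal. For the EB, single cells were seeded at 20000 per well in round-bottom low-attachment plates and kept in Essential 6 (E6) medium, a defined medium that lacks FGF2 and TGF-beta, until day 7. They form 2 arms of 16 libraries that differ in the compound present for the first 24 hours. The CEPT arm received a cytoprotective cocktail of chroman 1, emricasan, polyamines and trans-ISRIB, and the other arm received Y-27632, an inhibitor of the ROCK kinases. In addition, 3 cultures of 4 libraries each, driven toward ectoderm, mesoderm and endoderm, served in the series as lineage controls. The ectoderm culture was kept for 6 days in E6 medium with a pair of inhibitors, LDN-193189 at 100 nM with A83-01 at 2 µM, and the mesoderm and endoderm cultures for 5 days in commercial kits. No untreated EB arm was analysed here, so every EB library had received a cell-survival compound. The labels name neither separate cultures nor pooled wells behind a library, so p-values measure the spread between these libraries, which may be technical.

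As background, hESC hold their state through a network of transcription factors around POU5F1, SOX2 and NANOG that is fed by FGF and Nodal/activin signalling. When those signals are withdrawn in a serum-free medium, many cells take the neural path by default. The neural plate is then patterned from dorsal to ventral and from forebrain to spinal cord, and at its dorsal border neural crest cells arise under PAX3, SNAI2, FOXD3 and SOX10 before they leave to form peripheral neurons, glia and pigment cells.

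RASL-seq, the assay used, ligates pairs of DNA probes that anneal side by side on a transcript and counts the ligated pairs. The panel held 1113 probe pairs for 452 genes, and the counts of a gene's probes were summed. Total reads per library ran from 1814266 to 4794912 in CEPT EB, from 379810 to 5577868 in Y-27632 EB and from 1773969 to 2801704 in hESC. Y-27632 EB replicate 15, with 379810 reads, was the only library under 0.25 of the median total. It and CEPT EB replicate 13 lay farthest from the rest of their arms, with root mean square distances of 1.48 and 1.59 in log2 CPM from the mean of the others, and the next were at 1.04 and 1.03. Levels below are read counts relative to library size (CPM) after TMM scaling, which assumes that most genes keep a common level. They can be compared between libraries but not between genes, since probe efficiency differs from gene to gene. The assumption is not met on this panel, since most genes differed between EB and hESC. After TMM the median fitted log2 difference over all tested genes was 0.58 in both arms, so differences between libraries depend on the scaling.

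The day 7 EB differed from hESC across most of the panel. Of 423 genes tested, 303 (71.6%) differed in both arms in the same direction, 175 (41.4%) of them higher and 128 (30.3%) lower, where the threshold was an adjusted p under 0.05 in each arm (quasi-likelihood F-test in edgeR, p-values adjusted by Benjamini-Hochberg over all tested genes). A gene called in both arms is described below as having risen or fallen. These shares are the background for the counts within gene groups. CEPT EB alone differed from hESC in 324 genes (76.6%), 186 higher (44%) and 138 lower (32.6%), and Y-27632 EB alone in 325 (76.8%), 190 higher (44.9%) and 135 lower (31.9%). Both contrasts use the same 4 hESC libraries, so a call in the second arm is not an independent repetition. The change was at least 2-fold in both arms for 148 genes that rose (35%) and 93 that fell (22%). No gene was called in opposite directions in the 2 arms. For 129 genes (30.5%) all 32 EB libraries lay above all 4 hESC libraries, and for 106 (25.1%) all lay below. Without Y-27632 EB replicate 15 the counts were 176 higher and 128 lower, and without CEPT EB replicate 13 they were 178 and 129. Scaling to 5 reference genes on the panel instead gave 186 higher and 79 lower, a share of 70.2% higher against 57.8% with TMM. Bulk libraries cannot tell a change in the number of cells of a type from a change in the RNA per cell.

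The 4 genes proposed as markers of these EB, ISL1, NR2F1, SST and PAX3, were near or at 0 reads in hESC and abundant in every EB library. ISL1 encodes a LIM-homeodomain factor of motor and sensory neurons and of cardiac progenitors. It measured 0, 0.378, 0.586 and 0 CPM in the 4 hESC libraries, which together held 2 reads. The lowest, median and highest values were 1177, 1936 and 3226 CPM over the 16 CEPT EB libraries and 1643, 2349 and 3073 CPM over the 16 Y-27632 EB libraries. The groups did not come near each other, and within each arm the highest library was less than 3 times the lowest. The ratio of the mean CPM to hESC was 8112 (95% interval 2246 to 66986) in CEPT EB and 9997 (95% interval 2768 to 82549) in Y-27632 EB, intervals that cover the counting error of the 2 hESC reads only (edgeR adjusted p = 1.88e-24 and 1.16e-24).

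NR2F1, an orphan nuclear receptor that patterns the developing brain, had 0 reads in all 4 hESC libraries. Its CPM ran over 580.4, 937 and 1402 in CEPT EB and 757, 1109 and 1505 in Y-27632 EB (lowest, median, highest, as throughout). Set against a floor of 3 reads in each hESC library, 1.46 CPM on average, NR2F1 was at least 636-fold higher in CEPT EB and at least 756-fold higher in Y-27632 EB (edgeR adjusted p = 2.57e-22 and 1.49e-22). PAX3, the paired-box factor of the dorsal neural tube and neural crest, was likewise at 0 reads in every hESC library. It reached 745, 883 and 1165 CPM in CEPT EB and 807, 1179 and 1593 CPM in Y-27632 EB, the narrowest range of the 4 genes in the CEPT arm. That placed it at least 614-fold and 804-fold above the same floor (edgeR adjusted p = 1.17e-26 and 7.37e-27). The CEPT arm held less PAX3 than the Y-27632 arm, a difference of -0.39 ± 0.09 on the log2 scale (edgeR adjusted p = 0.00109), where ± after a log2 difference is its standard error.

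SST encodes somatostatin, the peptide of a class of inhibitory interneurons and of endocrine cells. The hESC libraries measured 1.39, 0.378, 1.17 and 0.518 CPM. CEPT EB held 6220, 10937 and 19734 CPM and Y-27632 EB 4642, 7593 and 12967 CPM, so that every EB library lay more than 3 orders of magnitude above hESC. The log2 difference from hESC was 13.75 ± 0.54 in CEPT EB and 13.22 ± 0.53 in Y-27632 EB (edgeR adjusted p = 2.78e-23 and 5.65e-23). The CEPT arm was higher than the Y-27632 arm by 0.53 ± 0.15 (edgeR adjusted p = 0.00779), the opposite order to PAX3, a difference called under 2 of the 4 other scalings. The 250 bases before the RefSeq start of SST, the gene of largest log2 difference among those with more than 3 hESC reads, are shown because they hold a palindrome, TGACGTCA, known as the cAMP response element. They lie at chr3:187670395-187670644 on the minus strand of GRCh38.p14, upstream of the first exon, and capitals mark the element, whose bases sit 47 to 40 before the start site:
SST: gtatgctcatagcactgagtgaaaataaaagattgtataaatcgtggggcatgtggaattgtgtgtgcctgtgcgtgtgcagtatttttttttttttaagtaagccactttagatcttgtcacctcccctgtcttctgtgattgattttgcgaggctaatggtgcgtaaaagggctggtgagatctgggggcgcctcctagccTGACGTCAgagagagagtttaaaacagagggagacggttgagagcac
On both strands of the same 250 bases before the start, 578 of 35116 RefSeq promoters (1.65%) held TGACGTCA. This share is over promoter entries, whereas those that follow are over genes, each counted if any of its entries held the element. A promoter entry existed for 127 of the 175 genes that rose, and 9 of the 127 (7.09%) held it: DLG4, FOXD3, IFRD1, NRCAM, PAX6, RBM12, SST, SYN1 and WSB1. Of the 128 genes that fell 87 had an entry, and 4 (4.6%) held it. Of the genes tested and not called, 93 had an entry, and 2 (2.15%) held it. These are counts of letters in a window and say nothing about binding.

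**Figure D1:**
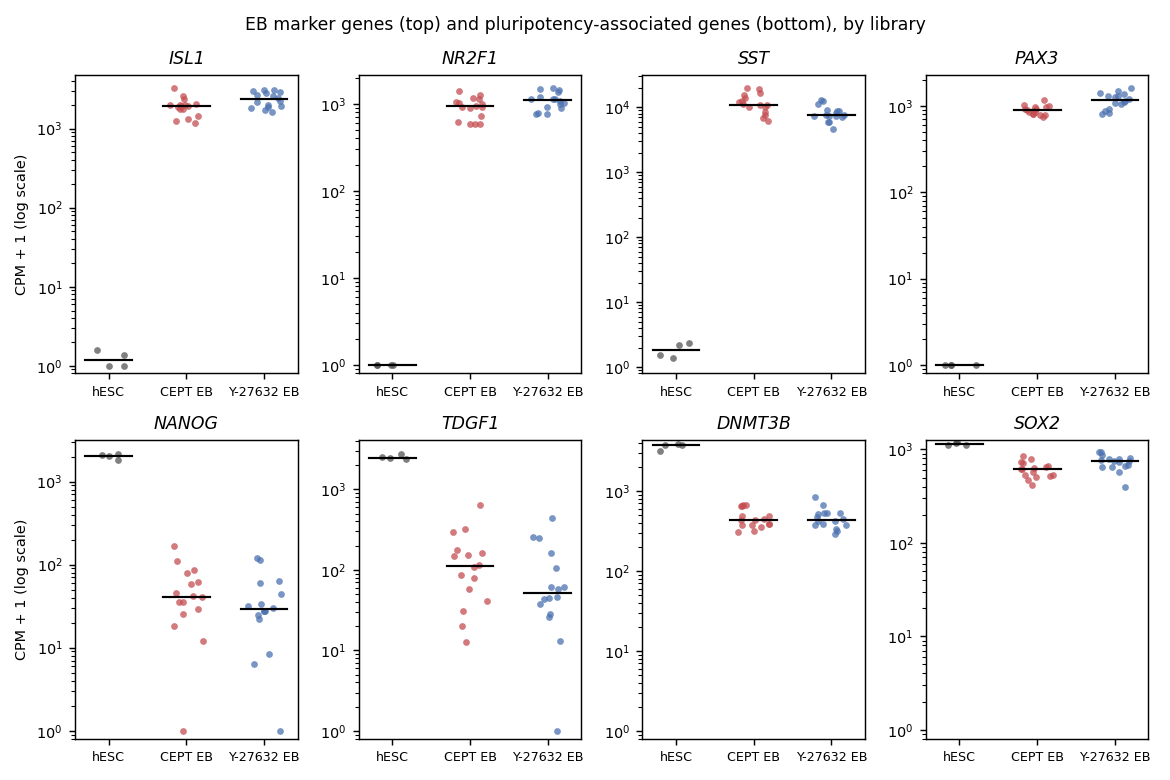
Level of 8 genes in each library, as CPM + 1 on a log scale, for 4 hESC, 16 CEPT EB and 16 Y-27632 EB libraries; each point is a library and the bar is the group median. ISL1, NR2F1, SST and PAX3 (top) lie far above hESC in all 32 EB libraries, while NANOG, TDGF1, DNMT3B and SOX2 (bottom) lie below hESC in all 32, SOX2 by the smallest distance.

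Neuronal genes made up the largest group that rose. Of 22 tested, 19 rose, PPP1R1B and SYT6 fell, and GAD2 did not pass the test. The list includes the proposed EB markers ISL1, NR2F1 and SST, so their rise is counted here again and is no separate result. The median log2 difference of the 22 was 4.06 in CEPT EB and 4.30 in Y-27632 EB with genes at 0 reads in hESC set to their lower bound, against 0.43 and 0.41 over all 423 genes. NEUROD1, a factor that drives neuron formation, had 1 read in the 4 hESC libraries together, and 1245, 1924 and 3622 CPM in CEPT EB and 1868, 2678 and 3584 CPM in Y-27632 EB. Its ratio to hESC was 17397 (95% interval 3122 to 687130) and 22806 (95% interval 4093 to 900780) (edgeR adjusted p = 4.72e-25 and 2.04e-25), and its wide interval reflects the single hESC read. NEUROG2, a proneural factor of glutamatergic lineages, also had 1 hESC read. It measured 11.2, 24 and 50.2 CPM in CEPT EB and 11.3, 24.8 and 44.8 CPM in Y-27632 EB. Every EB library was above every hESC library for both genes.

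Other members of the neuron list rose as follows. TUBB3, the neuronal beta-tubulin, was at 1494, 1708, 1616 and 1835 CPM in hESC, 5529, 11090 and 20720 in CEPT EB and 7421, 13046 and 20542 in Y-27632 EB, without overlap. The log2 difference was 2.84 ± 0.30 in CEPT EB and 3.00 ± 0.30 in Y-27632 EB (edgeR adjusted p = 7.06e-11 and 2.32e-11). DCX, a microtubule protein of migrating neurons, rose by 6.22 and 6.02, GAP43, of growth cones, by 4.07 and 4.26, MAP2, of dendrites, by 2.40 and 2.53, and MAPT, which encodes tau, by 3.06 and 3.50 in the 2 arms. ELAVL3, a neuronal RNA-binding protein, had 5 reads in hESC and rose from a mean of 0.566 ± 0.402 CPM to 231 ± 72 in CEPT EB and 277 ± 76.8 in Y-27632 EB (± is the SD of CPM over 4, 16 and 16 libraries). NR2F2, the close relative of NR2F1, had 2 hESC reads and a ratio of 5375 (95% interval 1488 to 44386) and 5707 (95% interval 1579.9 to 47126) (edgeR adjusted p = 7.24e-23 and 6.96e-23). NR2F1 and NR2F2 were read by 1 probe each, and whether related transcripts share reads on any probe was not tested.

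Genes of transmitter identity and of synapses also rose in most cases. SLC17A7 and SLC17A6, the vesicular glutamate transporters, rose by 3.80 and 4.09 and by 4.06 and 3.08. For SLC17A6 a Y-27632 EB library, at 2.25 CPM, lay under the lowest hESC library, at 2.59. That value equals a single read in Y-27632 EB replicate 15, the shallowest library. GAD1, which makes GABA, had 3 hESC reads and measured 0, 15.4 and 58.4 CPM in CEPT EB and 1.01, 7.29 and 38.4 CPM in Y-27632 EB (edgeR adjusted p = 0.000131 and 0.000808), while GAD2, the second GABA-making enzyme, gave log2 differences of -0.18 and 0.33 (adjusted p = 0.901 and 0.817). TH, the rate-limiting enzyme of dopamine and noradrenaline synthesis, measured 0, 5.49 and 18.6 and 0, 5.88 and 26.9 CPM against 2 hESC reads (edgeR adjusted p = 0.00115 and 0.000814). The synaptic vesicle proteins SYP and SYN1 rose by 3.96 and 4.32 and by 1.02 and 1.23. The SYN1 call held under 3 of the 4 other scalings, and none of its 3 probes was called on its own. PPP1R1B, a phosphatase inhibitor of dopamine-responsive neurons, ran the other way, from 238, 275, 239 and 249 CPM in hESC to 0, 3.15 and 18.6 in CEPT EB and 0, 1.87 and 8.45 in Y-27632 EB. The log2 difference of PPP1R1B was -5.80 ± 0.72 in CEPT EB and -6.45 ± 0.74 in Y-27632 EB (edgeR adjusted p = 4.06e-09 and 5.23e-10). SYT6, a synaptotagmin, fell by 4.03 and 4.29.

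All 9 neural progenitor genes tested rose in both arms. VIM, the intermediate filament of progenitors and mesenchyme, was at 306, 348, 343 and 305 CPM in hESC, 5486, 6987 and 10361 in CEPT EB and 4528, 8149 and 13708 in Y-27632 EB. The EB libraries lay clear of hESC, with a log2 difference of 4.5 ± 0.24 in CEPT EB and 4.67 ± 0.25 in Y-27632 EB (edgeR adjusted p = 4.84e-19 and 2.04e-19). FABP7, a fatty acid carrier of radial glia, rose by 5.91 and 5.50, S100B, of glia and crest derivatives, by 9.75 and 8.96, NCAM1, the neural adhesion molecule, by 3.13 and 3.32, CDH2, the cadherin of the neural plate, by 1.07 and 1.27, and DLL1, a Notch ligand, by 1.48 and 1.78. HES5, a Notch target with 0 hESC reads, measured 0, 2.52 and 10.8 CPM in CEPT EB and 0, 1.19 and 10.2 CPM in Y-27632 EB. Its mean was at least 2.28-fold and 1.29-fold above the floor, and the 1 HES5 probe tested singly was not called in both arms. NES, which encodes nestin, changed least of the 9 in Y-27632 EB: the log2 difference was 0.98 ± 0.27 in CEPT EB and 0.58 ± 0.27 in Y-27632 EB (edgeR adjusted p = 0.00163 and 0.0469), 28 of 32 EB libraries lay above all hESC libraries, and the call held under 2 of the 4 other scalings. Of the probes tested singly, 1 of 3 for NES and 1 of 2 for PAX6 were called in both arms. PAX6 is described with the forebrain genes.

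Genes of the dorsal neural tube and neural crest rose nearly as a block. Of 8 tested, PAX3, SNAI2, SOX10, FOXD3, MSX1, NGFR and ETS1 rose, each above hESC in all 32 EB libraries, and ZIC1 fell. PAX3 is a proposed EB marker and is counted here again. SNAI2, a repressor that lets crest cells leave the epithelium, was at 3.23, 2.27, 0.586 and 2.59 CPM in hESC, 982, 1289.6 and 1524 in CEPT EB and 1160.1, 1572 and 1892 in Y-27632 EB. The groups were far apart, with a log2 difference of 9.14 ± 0.24 in CEPT EB and 9.43 ± 0.25 in Y-27632 EB (edgeR adjusted p = 2.53e-28 and 1.13e-28). SOX10, the factor of migrating crest and its glial and pigment derivatives, was at 1.85, 6.80, 2.34 and 4.66 CPM in hESC, 852, 1348 and 1754 in CEPT EB and 1103, 1638 and 2347 in Y-27632 EB. Its log2 difference was 8.29 ± 0.34 in CEPT EB and 8.71 ± 0.34 in Y-27632 EB (edgeR adjusted p = 7e-23 and 3.31e-23). Both genes were lower in the CEPT arm than in the Y-27632 arm, SNAI2 with a difference of -0.29 ± 0.08 (edgeR adjusted p = 0.00618, called under 3 of the 4 other scalings) and SOX10 with -0.41 ± 0.12 (edgeR adjusted p = 0.00873).

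FOXD3, an early crest factor that pluripotent cells also express, was at 237, 279, 258 and 302 CPM in hESC and rose to 469, 669.8 and 869 in CEPT EB and 518, 862 and 964 in Y-27632 EB. The log2 difference of 1.32 ± 0.15 in CEPT EB and 1.62 ± 0.15 in Y-27632 EB (edgeR adjusted p = 3.35e-10 and 3.58e-12) was small beside those of SNAI2 and SOX10, yet no EB library reached down to hESC. NGFR, the low-affinity neurotrophin receptor used to sort crest cells, rose by 1.98 and 2.28, and ETS1, a factor of cranial crest and endothelium, by 2.30 and 2.57. MSX1, of the neural plate border and limb mesenchyme, rose by 4.36 and 5.01, and its mean of 94.4 ± 180 CPM in Y-27632 EB became 49.6 ± 17.5 (SD, n = 15) without replicate 15. ZIC1, which specifies the neural plate border, fell from 195, 190.4, 184 and 174 CPM in hESC to 0, 22.6 and 39.2 in CEPT EB and 10.5, 16.1 and 29.8 in Y-27632 EB, a log2 difference of -3.06 ± 0.34 in CEPT EB and -3.45 ± 0.34 in Y-27632 EB (edgeR adjusted p = 3.82e-10 and 1.8e-11).

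Of 5 tested genes of the midbrain, hindbrain and roof plate, LMX1A, WNT1 and MSX1 rose, GBX2 fell and EN1 did not pass the test. WNT1, the signal of the midbrain-hindbrain border and roof plate, had 0 reads in hESC and measured 0, 15.7 and 63.7 CPM in CEPT EB and 0, 14 and 46.9 CPM in Y-27632 EB. It was at least 13.8-fold and 12.2-fold above the floor (edgeR adjusted p = 9.37e-06 and 1.28e-05), and above hESC in 30 of 32 EB libraries. LMX1A, a roof plate factor, also had 0 reads in hESC and was low in EB, at 0, 5.05 and 19.8 and 0, 2.34 and 8.04 CPM, with 26 of 32 EB libraries above hESC (edgeR adjusted p = 0.000983 and 0.0046). GBX2, a hindbrain factor that pluripotent cells express, fell from 807, 852, 916 and 950.4 CPM to 0, 53 and 132 in CEPT EB and 4.51, 51.7 and 291 in Y-27632 EB, a log2 difference of -3.90 ± 0.53 in CEPT EB and -3.75 ± 0.53 in Y-27632 EB (edgeR adjusted p = 2.95e-08 and 6.62e-08).

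Forebrain and anterior neural plate genes did not move as a group. Of 8 tested, PAX6 rose, SIX3, HESX1, ZIC1 and ZIC2 fell, and SOX1, OTX2 and EMX2 were not called in both arms. PAX6, the factor of human neuroectoderm and cortical progenitors, had 2 reads in hESC and measured 6.28, 19.1 and 52.1 CPM in CEPT EB and 0, 9.85 and 38.4 CPM in Y-27632 EB, with 29 of 32 EB libraries above hESC. Its ratio to hESC was 86.8 (95% interval 24 to 717) and 47.8 (95% interval 13.2 to 395) (edgeR adjusted p = 2.12e-05 and 0.000121). ZIC2 fell from 1766, 1871, 1938 and 1910 CPM in hESC to 87.6, 207 and 439.6 in CEPT EB and 72.1, 219 and 336 in Y-27632 EB, without overlap, with a log2 difference of -3.03 ± 0.26 in CEPT EB and -3.23 ± 0.25 in Y-27632 EB (edgeR adjusted p = 2.14e-13 and 3.43e-14). SIX3 fell by 2.27 and 3.09 on the log2 scale and HESX1 by 1.01 and 1.05, the last called under 3 of the 4 other scalings.

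OTX2, of forebrain and midbrain, was called in CEPT EB only. It was at 24, 35.1, 32.8 and 26.9 CPM in hESC, 57.0, 82.6 and 186 in CEPT EB and 6.76, 42.9 and 99.4 in Y-27632 EB, so that 26 of 32 EB libraries lay above hESC and 3 below. The log2 difference from hESC was 1.65 ± 0.42 in CEPT EB and 0.58 ± 0.39 in Y-27632 EB (edgeR adjusted p = 0.000547 and 0.175), and the arms differed by 1.08 ± 0.24 (edgeR adjusted p = 0.000717). SOX1, an early neuroectoderm factor, gave log2 differences of 1.70 and 1.56 (adjusted p = 0.08 and 0.104).

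In the ventral neural tube and oligodendrocyte list, OLIG1, OLIG2, FOXP2 and PDGFRA rose of 6 tested, MBP fell and FOXA2, the floor plate and endoderm factor, gave -0.78 and -1.60 (adjusted p = 0.597 and 0.262). OLIG2, which specifies motor neuron and oligodendrocyte progenitors, was at 25.9, 31.7, 25.2 and 24.9 CPM in hESC, 66.4, 101 and 155 in CEPT EB and 124, 175 and 302 in Y-27632 EB. The log2 difference from hESC was 1.93 ± 0.24 in CEPT EB and 2.82 ± 0.26 in Y-27632 EB (edgeR adjusted p = 4.49e-09 and 1.74e-12). It was lower in CEPT EB than in Y-27632 EB, with a difference of -0.89 ± 0.13 (edgeR adjusted p = 2.68e-06). OLIG1 rose by 1.47 and 1.72 and PDGFRA, the receptor of oligodendrocyte precursors and of mesenchyme, by 5.07 and 5.41. MBP, which encodes myelin basic protein, fell from 298, 277, 283 and 261 CPM in hESC to 0, 6.71 and 29.4 in CEPT EB and 1.25, 5.81 and 24.3 in Y-27632 EB, a log2 difference of -5.01 ± 0.70 in CEPT EB and -5.12 ± 0.70 in Y-27632 EB (edgeR adjusted p = 4.24e-08 and 2.79e-08).

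**Figure D2:**
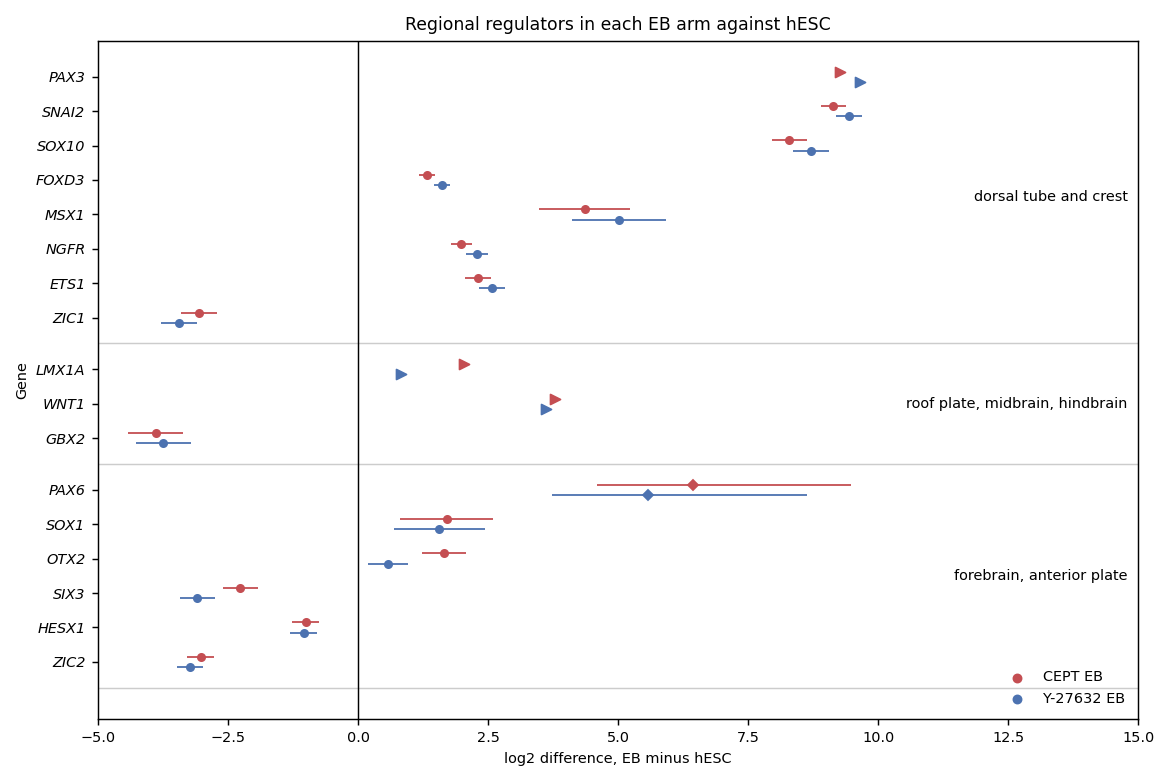
Log2 difference from hESC in each EB arm for regional regulators; circles are fitted differences with bars of 1 standard error, diamonds are ratios against 1 to 3 hESC reads with 95% counting intervals, and triangles are lower bounds for genes with 0 hESC reads. The dorsal and crest genes lie to the right of 0 except ZIC1, while GBX2, SIX3, HESX1 and ZIC2 lie to the left; EN1 and EMX2, near 0 reads throughout, are not drawn.

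Genes of the pluripotent state fell almost throughout. Of 14 tested, 13 fell and LIN28B rose, and the median log2 difference was -2.44 in CEPT EB and -2.49 in Y-27632 EB. NANOG had the largest fall of the list in CEPT EB. It was at 2002, 2163, 2103 and 1794 CPM in hESC, 0, 40.1 and 164 in CEPT EB and 0, 27.8 and 119 in Y-27632 EB. Every EB library was below every hESC library, with a wide range within each arm. The log2 difference was -5.27 ± 0.56 in CEPT EB and -5.67 ± 0.56 in Y-27632 EB (edgeR adjusted p = 7.82e-11 and 1.5e-11). The 250 bases before the RefSeq start of NANOG are shown because they hold, in capitals, the joined OCT4 and SOX2 recognition letters known as a binding element of this network. They lie at chr12:7789152-7789401 on the plus strand of GRCh38.p14, upstream of the first exon, and the capitals sit 120 to 107 bases before the start site:
NANOG: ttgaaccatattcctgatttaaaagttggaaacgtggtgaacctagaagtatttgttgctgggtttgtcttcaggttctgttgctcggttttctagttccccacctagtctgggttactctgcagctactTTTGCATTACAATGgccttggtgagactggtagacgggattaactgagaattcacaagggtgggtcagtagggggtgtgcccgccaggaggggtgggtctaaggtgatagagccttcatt
This composite OCT4-SOX2 element, searched on both strands with any base at its eighth position, was held by 2 of the 35116 promoters (0.0057%), NANOG among them. No other tested gene with an entry did.

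The other pluripotency genes fell by different amounts. DNMT3B, the de novo DNA methyltransferase of these cells, was at 3104, 3734, 3772 and 3814 CPM in hESC, 306, 432 and 672 in CEPT EB and 286, 433 and 828 in Y-27632 EB, a log2 difference of -2.96 ± 0.18 in CEPT EB and -2.96 ± 0.18 in Y-27632 EB (edgeR adjusted p = 1.65e-17 and 1.72e-17). L1TD1, an RNA-binding protein of hESC, fell by 2.74 and 2.64 with an SD of log2 CPM of 0.28 and 0.22. DPPA2 fell by 2.17 and 2.34, and its partner in chromatin DPPA4 by 1.28 and 1.2. PODXL, a surface sialomucin, fell by 3.54 and 3.25, and without Y-27632 EB replicate 15 the difference in that arm was -3.93, at a mean of 139 ± 87.1 in place of 229.6 ± 370.4 CPM. CD9, a tetraspanin, fell by 2.99 and 3.77. ZFP42, the REX1 factor, fell by 0.70 and 0.98.

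SOX2, SALL4 and LIN28A, which neural and other progenitors also express, fell by less than 1 on the log2 scale. SOX2 was at 1198, 1127, 1125 and 1174 CPM in hESC, 414, 621 and 842 in CEPT EB and 399, 745 and 946 in Y-27632 EB, below hESC in all 32 libraries. The log2 difference was -0.92 ± 0.14 in CEPT EB and -0.65 ± 0.14 in Y-27632 EB with TMM (edgeR adjusted p = 3.5e-07 and 0.000105), and 2 of the 4 other scalings kept the call. With reference gene scaling the value in Y-27632 EB was 0.0124, so the direction there turned. SALL4 fell by 0.57 and 0.62 with TMM and was called under 2 of the 4 other scalings, but was at 0.0283 in Y-27632 EB with reference gene scaling. LIN28A, which blocks let-7 maturation, fell by 0.61 and 0.68, a call that held under 2 of the 4 other scalings, whereas its relative LIN28B rose by 0.91 and 0.76 (edgeR adjusted p = 4.49e-11 and 2.59e-09), above hESC in all 32 EB libraries and called under all 4. POU5F1 was read by 1 probe that gave only 8.77, 4.91, 9.96 and 11.4 CPM in hESC. It fell to medians of 0 in both arms, with a highest value of 6.76 CPM in CEPT EB and 1.60 in Y-27632 EB (edgeR adjusted p = 0.0205 and 1.53e-05).

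In the Nodal pathway TDGF1, LEFTY1 and GDF3 fell of 5 genes tested, and NODAL and LEFTY2 were not called in both arms. TDGF1, the co-receptor of Nodal, was at 2767, 2428, 2502 and 2345 CPM in hESC, 11.7, 111 and 629 in CEPT EB and 0, 50.4 and 442 in Y-27632 EB. All EB libraries were below hESC but their range was wide. The log2 difference was -4.05 ± 0.69 in CEPT EB and -4.62 ± 0.69 in Y-27632 EB (edgeR adjusted p = 2.16e-06 and 1.95e-07). LEFTY1, a secreted Nodal inhibitor, fell by 3.25 and 2.99 and GDF3, a ligand of the same family, by 3.74 and 3.75. GDF3 in Y-27632 EB had a mean of 22.1 ± 39.5 CPM, and 13.1 ± 16.8 (SD, n = 15) without replicate 16. LEFTY2 gave -2.7 and -1.25 (adjusted p = 0.0386 and 0.362), with 3 EB libraries above hESC, up to 158 CPM. NODAL, low but above the floor at 8.31 to 12.8 CPM in hESC, gave -1.58 and -1.72 (adjusted p = 0.234 and 0.191). Without Y-27632 EB replicate 16 its difference in that arm was -2.89 (adjusted p = 0.0169).

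Markers of mesoderm and endoderm ranged in EB from near the detection limit to well above it. PDGFRB, for example, averaged 31.1 CPM in CEPT EB and 42.7 in Y-27632 EB, and FZD5 averaged 57.2 and 31.4. Of 10 mesoderm genes tested, HAND1, PDGFRB, SNAI2 and ISL1 rose (the last 2 also belong to neural lists), KDR fell, and T, EOMES, HAND2, FOXF1 and NKX2-5 were not called in both arms. T, the brachyury factor of the primitive streak, had medians of 3.78 and 2.34 CPM against 1.64 in hESC (adjusted p = 0.29 and 0.276), and EOMES medians of 0 in all groups. HAND1, of lateral plate, heart and extraembryonic tissue, had 0 reads in hESC and measured 3.90, 17.1 and 446 CPM in CEPT EB and 0, 15.9 and 3976 CPM in Y-27632 EB. Its highest library lay far above the rest in each arm. The mean in Y-27632 EB was 279 ± 987 CPM, and 32.7 ± 55.2 (SD, n = 15) without replicate 15. In CEPT EB the mean of 54.8 ± 109 became 28.7 ± 33.4 (SD, n = 15) without replicate 16, and the call held without either library (edgeR adjusted p = 0.00235 and 0.031). KDR, a receptor of vascular precursors that hESC also express, fell by 4.0 and 3.80. Without Y-27632 EB replicate 15 its difference in that arm was -4.43, at a mean of 11.9 ± 11.4 in place of 20.8 ± 37.0 CPM.

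Y-27632 EB replicate 15 carried the highest value of its arm in HAND1, HAND2, FOXF1, TNNT2, MSX1, GATA6, KDR, PODXL and ANXA1. Further genes shared this, among them KRT18 and SPARC. In that library KRT18 was at 649 CPM, against at most 193 elsewhere in the arm, and SPARC at 852 against 351. HAND2, a partner of HAND1 in heart and limb, reached 160.1 CPM there, with a median of 0 in the arm. Without that library the HAND2 difference in Y-27632 EB went from an adjusted p of 0.0462 to 0.137, and that of TNNT2, cardiac troponin T, from 0.0417 to 0.0976. FOXF1, of splanchnic mesoderm, reached 87.9 CPM there and a mean of 0.432 ± 1.46 (SD, n = 15) in the other libraries. This was also the shallowest library, and the part of its depth in these values was not tested. In the CEPT arm replicate 16, with 2953569 reads, was highest in HAND1, GATA6, MSX1 and TNNT2, at 446, 44.3, 148 and 35.4 CPM. Other CEPT EB libraries were highest in HAND2, FOXF1, KDR, PODXL and ANXA1.

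**Figure D3:**
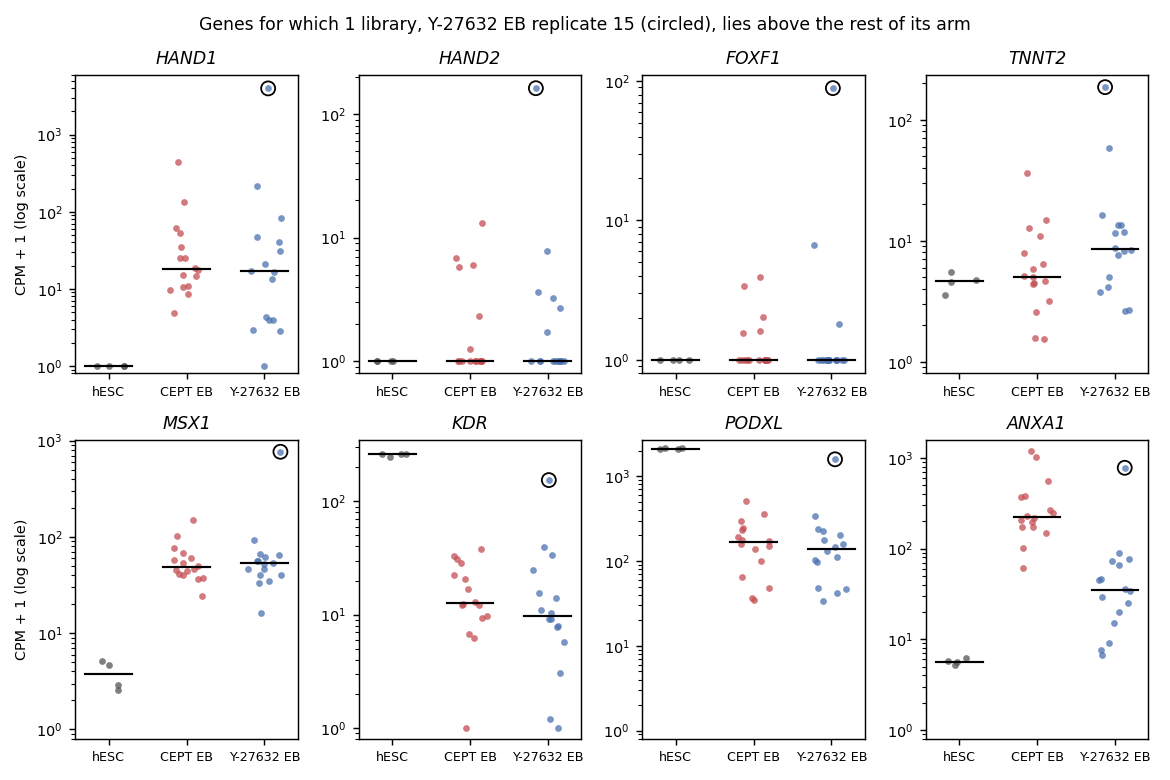
Level of 8 genes in each library, as CPM + 1 on a log scale, for hESC, CEPT EB and Y-27632 EB; the circle marks Y-27632 EB replicate 15 and the bar is the group median. HAND1 reaches 3976 CPM and HAND2 160.1 CPM in the circled library, while the medians of the arm are 15.9 and 0.

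Among 8 endoderm genes tested, SOX17, GATA6 and NPPB rose, FOXA1, HHEX and FZD5 fell, and FOXA2 and ALB did not pass the test. SOX17, a factor of definitive endoderm and of endothelium, had 0 hESC reads and measured 0, 8.72 and 18.5 CPM in CEPT EB and 0, 2.16 and 21.9 CPM in Y-27632 EB, at least 6.15-fold and 2.92-fold above the floor (edgeR adjusted p = 0.000876 and 0.00334). GATA6, of extraembryonic and definitive endoderm and heart, had 1 hESC read and medians of 9.88 and 5.36 CPM (edgeR adjusted p = 0.00474 and 0.00366). Its mean in Y-27632 EB was 17.8 ± 39.3 CPM, and 8.32 ± 10.8 (SD, n = 15) without replicate 15. HHEX, of anterior endoderm, fell from 335, 366, 352 and 336 CPM in hESC to 0, 23.2 and 77.3 in CEPT EB and 0, 8.17 and 47.3 in Y-27632 EB, and FOXA1, which opens chromatin in endoderm, fell by 4.11 and 4.59. ALB, which encodes albumin, had medians of 2.57 and 0.631 CPM (adjusted p = 0.0616 and 0.1). Replicate 8 was highest in both arms, at 39.4 and 30.8 CPM, and the next libraries were at 3.88 and 4.86. Without replicate 8 of the arm the log2 difference from hESC was 2.22 and 1.62 (edgeR adjusted p = 0.14 and 0.261). Of 2 cartilage and skeletal genes tested, LECT1, which encodes chondromodulin, fell by 2.67 and 2.87, and COL2A1, a cartilage collagen also made by neuroepithelium and notochord, rose from 42.0, 41.2, 41.6 and 31.1 CPM in hESC to 915, 1489 and 1966 in CEPT EB and 1167, 1616 and 1900 in Y-27632 EB. Of 3 endothelium and blood genes tested, KDR fell, PECAM1, a junction protein of endothelium with 0 hESC reads, was not called (adjusted p = 0.0838 and 0.0513), and CDH5 rose. CDH5, the endothelial cadherin, had 3 hESC reads and a ratio of 38.7 (95% interval 13.2 to 188) and 40.4 (95% interval 13.8 to 196).

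Of 3 genes of the surface ectoderm and epithelium list tested, EPCAM and KRT18 fell and KRT14, a keratin of stratified epithelia with 0 hESC reads, was not called (adjusted p = 0.0962 and 0.092). EPCAM, the epithelial adhesion molecule of hESC, was at 2649, 2614, 2687 and 2587 CPM in hESC, 46.9, 178 and 976 in CEPT EB and 15.5, 66.0 and 195 in Y-27632 EB. The log2 difference was -3.52 ± 0.43 in CEPT EB and -4.95 ± 0.43 in Y-27632 EB (edgeR adjusted p = 2.69e-09 and 6.61e-13), and the fall was smaller in the CEPT arm by 1.42 ± 0.33 (edgeR adjusted p = 0.00109). KRT18, a keratin of simple epithelia, fell by 3.66 and 4.06, and without replicate 15 the difference in Y-27632 EB was -4.53. Outside that list, CLDN1, of tight junctions, and FERMT1, an integrin adaptor of epithelia, were named for the size of their fall, 4.43 and 5.27 and 5.69 and 5.61. Without replicate 7 the CLDN1 value in Y-27632 EB was -5.83. OCLN, also of tight junctions, was not called (adjusted p = 0.243 and 0.568), and GRHL3, an epithelial transcription factor, rose by 4.23 and 3.08. All 3 immune-list genes tested fell: LCK, a kinase known from T cells, IDO1, which degrades tryptophan, and IFITM1, an interferon-induced membrane protein. IFITM1, at 34510, 30810, 28750 and 31910 CPM in hESC, measured 922, 4552 and 19919 CPM in CEPT EB and 404, 1889.6 and 7496 in Y-27632 EB.

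The 12 genes with the largest fall, among those with a mean of at least 50 reads in hESC, were LCK, NR5A2, PPP1R1B, FERMT1, NANOG, MBP, DUSP6, EFEMP1, CLDN1, MT1F, FOXA1 and TDGF1, and the next below was SYT6. LCK was at 62.8, 81.2, 68.6 and 77.2 CPM in hESC and at a median of 0 in both arms, with highest values of 8.36 and 3.20 CPM. Its log2 difference was -5.96 ± 1.02 in CEPT EB and -6.41 ± 1.03 in Y-27632 EB (edgeR adjusted p = 2.34e-06 and 7.83e-07). NR5A2, a nuclear receptor active in pluripotent cells and liver, was at 117, 94.4, 111 and 81.9 CPM in hESC and also had medians of 0. DUSP6, the phosphatase induced by FGF and ERK signalling, had the smallest standard error of the 12. It was at 1061, 1010, 1028 and 943 CPM in hESC, 19.4, 34.1 and 61.0 in CEPT EB and 20.4, 36 and 84.1 in Y-27632 EB, a log2 difference of -4.85 ± 0.23 in CEPT EB and -4.71 ± 0.23 in Y-27632 EB (edgeR adjusted p = 6.54e-21 and 1.51e-20). EFEMP1, an extracellular matrix protein, fell by 4.53 and 5.06, and MT1F, a metal-binding metallothionein, by 4.33 and 5.24.

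The 12 genes with the largest rise, with a mean of at least 50 reads over the EB libraries, were NR2F1, PAX3, NEUROD1, SST, ISL1, NR2F2, CDH6, HAND1, RANBP3L, HHATL, SNAI2 and WNT1. They were ranked by fitted log2 difference, which for genes with 0 to 3 hESC reads depends on the prior count and is no measured fold. Their order, and their place above the next gene, GREB1L, which rose by 8.98 and 9.31 from 11 hESC reads, is therefore not a ranking of measured size. Together they took a median of 1.82% of the reads in CEPT EB (range 1.16% to 2.86%) and 2.21% in Y-27632 EB (1.42% to 3.08%), against at most 0.000473% in hESC. CDH6, a cadherin of hindbrain and neural crest, had 1 hESC read and measured 251, 439.7 and 793 CPM in CEPT EB and 289, 409 and 569 CPM in Y-27632 EB. HHATL, a relative of the hedgehog acyltransferase, had 1 hESC read and measured 35.1, 93.8 and 142 and 65.3, 102 and 172 CPM. RANBP3L, a nuclear export factor, had 0 hESC reads and was at least 26.2-fold and 15.1-fold above the floor. All EB libraries lay above all hESC libraries for these 3 genes.

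Of 8 genes of the p53, arrest and death list, CDKN1A, FAS and GADD45A rose, none fell and 5 did not pass the test. CDKN1A, the p21 inhibitor of the cell cycle, was at 60.9, 62.7, 60.9 and 75.1 CPM in hESC, 105, 174 and 369.6 in CEPT EB and 54.6, 104 and 157 in Y-27632 EB. Its log2 difference was 1.51 ± 0.27 in CEPT EB and 0.76 ± 0.26 in Y-27632 EB (edgeR adjusted p = 5.59e-06 and 0.00802), called under 2 of the 4 other scalings. FAS, a death receptor, rose by 5.03 and 4.44, above hESC in all 32 EB libraries. Of 4 genes of the integrated stress response tested, DDIT3, which encodes the stress factor CHOP, rose by 4.39 and 3.51, ATF4, the factor upstream of it, fell by 0.85 and 0.75, and HSPA5 and GDF15 were not called in both arms. The fall of ATF4 was called under 3 of the 4 other scalings. The list of reference genes held 2 that fell of 5 tested, ACTB by 1.23 and 1.24 and GAPDH by 1.74 and 1.72. GAPDH and ACTB together took 15.2% to 17.9% of reads in hESC, 3.83% to 8.02% in CEPT EB and 5.14% to 10.0% in Y-27632 EB, and RPL13A and EEF1A1, which were higher in CEPT EB but not called in both arms, took 7.05% to 7.62%, 10.6% to 19.3% and 8.55% to 16.6%. The choice of scaling moved the differences: with reference gene scaling the median over all genes shifted by 0.21 in CEPT EB and 0.58 in Y-27632 EB, with upper-quartile factors by -0.14 and -0.23, and with DESeq2 size factors by -0.34 and -0.36. Of the 303 calls, 233 were made the same way under all 4 other scalings.

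**Figure D4:**
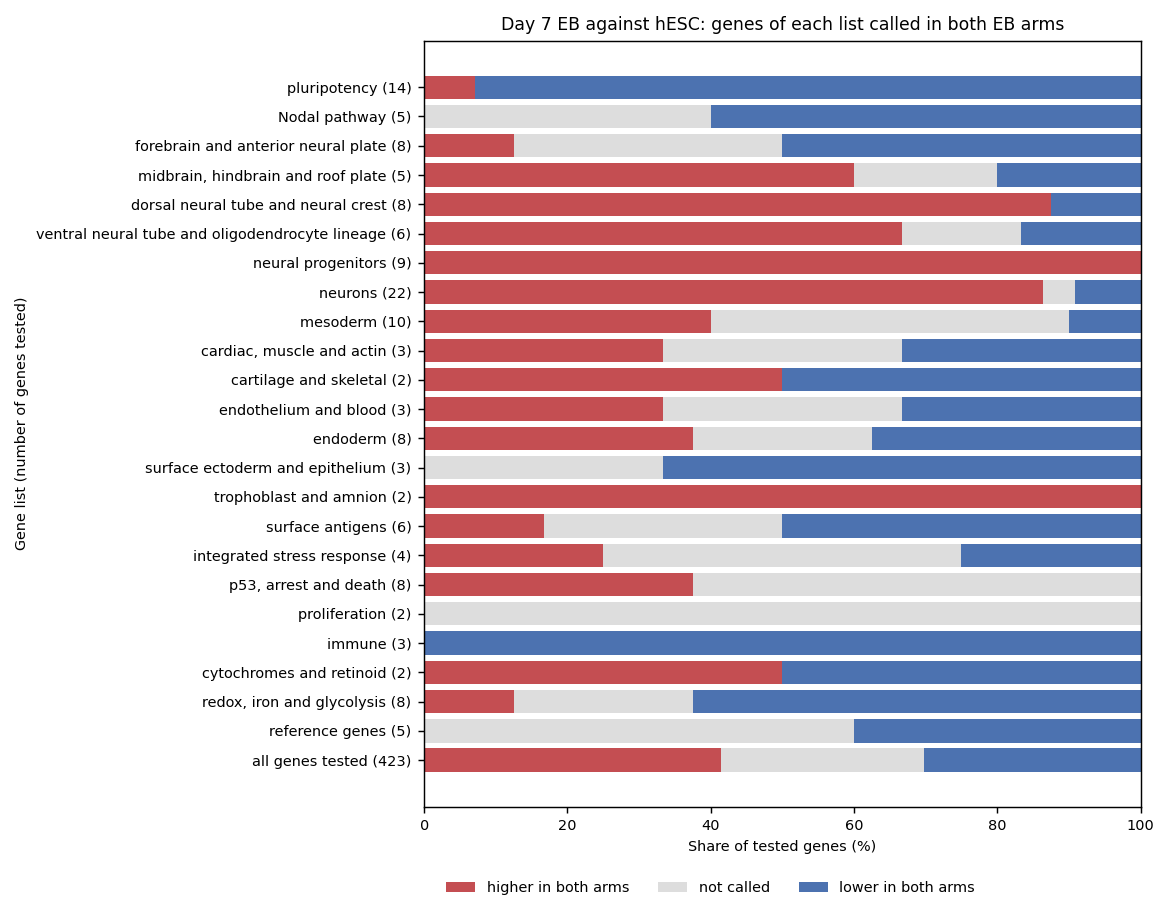
Share of the tested genes of each list that were called higher (red), lower (blue) or not called (grey) in both EB arms; the number of genes tested is in brackets and the bottom bar gives all 423 genes. The lists of neural progenitors, dorsal tube and crest, and neurons have the largest red shares among lists of 5 genes or more, and pluripotency has a blue share of 13 of 14.

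The 2 arms were tested against each other directly in the same fit, and 116 of 423 genes (27.4%) differed, 58 in each direction (13.7% each). Among genes called in both arms, the largest differences were lower in the CEPT arm for NRCAM, OLIG2, PKDCC, SPARC and ODC1, and higher for POU5F1, MACC1, NPPB, ANXA1 and GRIN1. NRCAM, a neuronal adhesion molecule, was at 12.5, 10.2, 8.20 and 11.4 CPM in hESC, 62.0, 107 and 179 in CEPT EB and 133, 208 and 279 in Y-27632 EB. It rose in both arms and was lower in CEPT EB, with a difference of -0.90 ± 0.12 (edgeR adjusted p = 3.82e-07). PKDCC, a secreted kinase, differed by -0.63 ± 0.08 between arms while it rose by 3.50 and 4.14 from hESC. ANXA1, a phospholipid-binding annexin, was at 4.62, 5.29, 4.69 and 4.15 CPM in hESC, 60.4, 221 and 1201 in CEPT EB and 5.77, 33.9 and 775 in Y-27632 EB, a difference between arms of 2.16 ± 0.54 (edgeR adjusted p = 0.00251). Without Y-27632 EB replicate 15 the mean of that arm went from 83.7 ± 186 to 37.6 ± 26.9 CPM (SD, n = 15), and its log2 difference from hESC from 4.03 to 2.98. MACC1 and GRIN1 fell less in CEPT EB, by 2.7 ± 0.64 and 1.99 ± 0.73, at means of 11.9 ± 10.8 and 2.16 ± 1.58 CPM there. POU5F1, read by 1 probe, lay near the detection limit in both arms. It averaged 1.32 CPM over the CEPT libraries, the highest at 6.76, but 0.128 over the Y-27632 libraries, the highest at 1.60. NPPB averaged 12.3 CPM with CEPT, or 7.99 once replicate 15, at 77.0, was left out. With Y-27632 it averaged 3.13 CPM, or 2.13 once replicate 15, at 18.0, was left out. For all 10 genes the arm difference kept its direction and its call under the 4 other scalings, which leave the low counts of POU5F1 as they are.

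EB libraries varied more among themselves than hESC libraries did. The median over genes of the SD of log2 CPM was 0.486 in CEPT EB (quartiles 0.318 and 1.08), 0.441 in Y-27632 EB (0.274 and 0.976) and 0.134 in hESC (0.0785 and 0.288). Among the named genes, the SD in the 2 arms was 0.14 and 0.15 for LIN28B, 0.21 and 0.19 for SNAI2 and 0.18 and 0.31 for PAX3. It was 1.87 and 1.86 for NANOG, 1.51 and 2.22 for TDGF1 and 1.68 and 3.07 for HAND1. Lists were mixed in this measure, with 0.16 and 0.18 for the pluripotency gene LIN28A and 0.63 and 1.15 for the crest gene MSX1.

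The probes of a gene mostly moved together. Of 992 probes tested singly, 637 (64.2%) were called in both arms. Of 266 called genes with several tested probes, all probes were called in the gene's direction for 171. For 94 at least 1 probe was not called, and for some of these, SYN1 among them, none was called. For 1 gene, CYP2B6, probes were called in opposite directions. Both probes of SST, of PAX3 and of ISL1 rose on their own. CYP2B6, a drug-metabolising cytochrome, rose as a sum, from 222, 212, 208 and 232 CPM in hESC to 597, 1139 and 3113 in CEPT EB and 584, 703 and 2392 in Y-27632 EB, a log2 difference of 2.57 ± 0.44 in CEPT EB and 2.20 ± 0.43 in Y-27632 EB (edgeR adjusted p = 2.46e-06 and 2e-05). The probe at base 1873 of the transcript rose from a mean of 160.0 ± 16.7 CPM (SD, n = 4) to 1295 ± 667 in CEPT EB and 1005 ± 614 in Y-27632 EB (n = 16 each). The probes at bases 537 and 1308 fell from 27.4 ± 3.76 and 31.1 ± 5.23 CPM to 0.429 ± 0.830 and 0.268 ± 0.811 in CEPT EB and 0.141 ± 0.564 and 0.175 ± 0.435 in Y-27632 EB. The direction given by the sum for CYP2B6 is therefore that of a single probe, and reads shared with related genes were not tested. CYP26A1, the retinoic acid hydroxylase, fell by 1.88 and 2.27.

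The same genes were then set against the 3 directed cultures in a fit of all 48 libraries, whose scaling makes its CPM differ slightly from those above. All 12 genes with the largest rise were higher in both EB arms than in the ectoderm culture, and all but HAND1, that is 11, were also higher than in the mesoderm and endoderm cultures. These genes were chosen for high values in EB and low values in hESC, so the counts are a description and nothing is read from them. Over the panel, EB were higher than ectoderm in 153 of 427 genes (35.8%) and higher than each of the 4 other cultures, hESC included, in 81 (19%). They were lower than ectoderm in 145 genes (34%), higher than mesoderm in 179 (41.9%) and lower in 122 (28.6%), and higher than endoderm in 192 (45%) and lower in 139 (32.6%). SST had a mean of 11342 ± 4249 CPM (SD, n = 16) in CEPT EB and 7722 ± 2204 (n = 16) in Y-27632 EB, and 11.6 ± 1.66, 1.92 ± 0.691 and 1.57 ± 1.40 (n = 4 each) in the ectoderm, mesoderm and endoderm cultures. ISL1 had 1821 ± 496 and 2205 ± 521 CPM in EB and 0.886 ± 0.776, 8.19 ± 2.7 and 14.2 ± 2.54 in the 3 cultures. The ectoderm culture also held PAX3, at 270 ± 19.4 CPM, and NR2F2, at 728 ± 58.8 CPM, and EB exceeded it by 1.65 and 2.02 and by 0.72 and 0.79 on the log2 scale.

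PAX6 ran the other way. It was at 1004 ± 55.4 CPM (SD, n = 4) in the ectoderm culture, 19.3 ± 9.90 in CEPT EB and 10.7 ± 9.96 in Y-27632 EB (n = 16 each), log2 differences of -5.69 and -6.51 and a call in both arms. SNAI2 was at 509 ± 27.8 CPM in the mesoderm culture, against 1209 ± 191 and 1452 ± 205 in EB, and SOX10 at 24.1 ± 5.32 CPM in the ectoderm culture, against 1209 ± 267 and 1592 ± 384. HAND1 was not called in both arms against the mesoderm culture, which held 451 ± 43.1 CPM. GATA6 and SOX17 were far below the endoderm culture, at 3876 ± 136 and 2483 ± 312 CPM there. NANOG and TDGF1, which had fallen from hESC, were still higher in EB than in the ectoderm culture, by fitted values of 8.50 and 8.09 and of 5.04 and 4.44 on the log2 scale. With EB means of 52.0 and 39.0 CPM in the first fit, the NANOG values place the ectoderm culture near the detection limit. They depend on the prior count and are no measured fold.

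**Figure D5:**
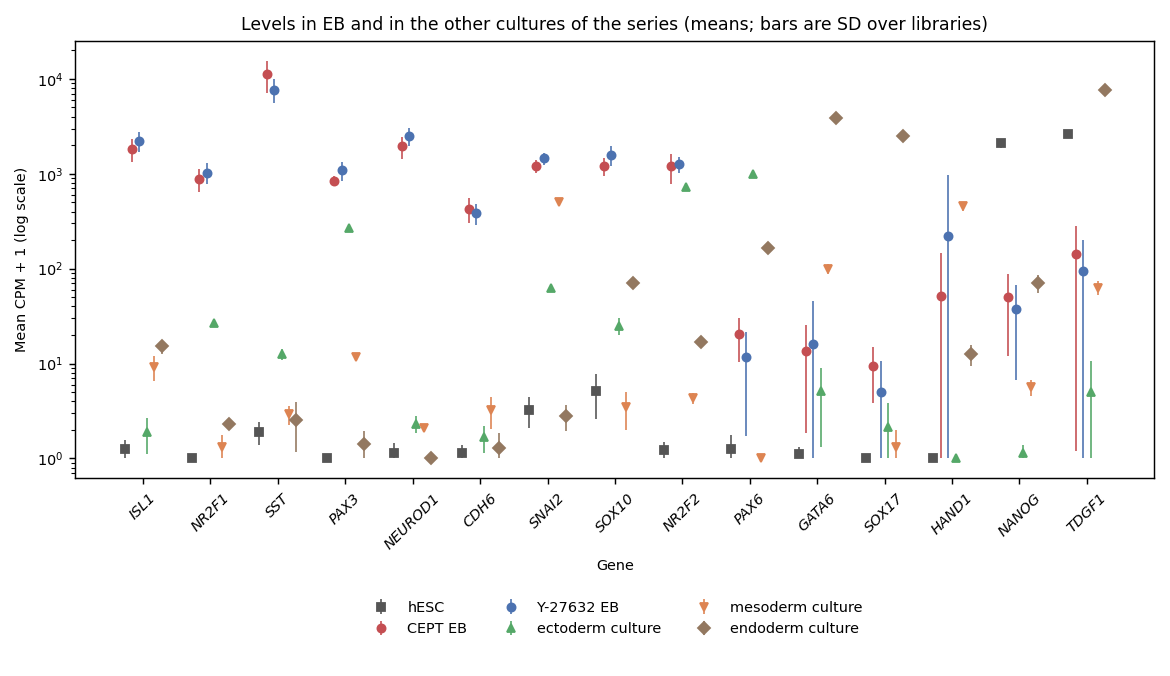
Mean CPM + 1 on a log scale for 15 genes in hESC, both EB arms and the 3 directed cultures, from the fit of 48 libraries; bars are SD over libraries, cut at 0. ISL1, NR2F1, SST, NEUROD1 and CDH6 are far higher in both EB arms than in any other culture, PAX6 is highest in the ectoderm culture, and GATA6 and SOX17 are highest in the endoderm culture.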

How the data were processed

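The authors deposited raw read counts per RASL-seq probe, made from NextSeq 550 reads with a custom aligner per the labels' protocols; build hg38 and DESeq2 are named in the submitters' processing notes. Of the merged columns 48 matched a sample and 16 did not and were left unused. Here the probe counts were summed per gene. One edgeR 4.0.16 fit (R 4.3.3, TMM, filterByExpr, robust quasi-likelihood) of 36 libraries gave each arm against hESC and the arms against each other, and a second fit of 48 libraries gave EB against the directed cultures. Adjusted p-values are Benjamini-Hochberg over all tested genes. Fold changes against 0 hESC reads use a floor of 3 reads per library. Reads carry no molecular identifiers, so intervals and floors cover counting error only. The pairs of libraries closest to each other differed by more than sampling noise. Alternatives were other scalings, filters, DESeq2 1.42.0, a replicate block, the library total as covariate and leaving out each library. The fit was tested on simulated data, in which 194 of 414 genes were changed 2-fold or 4-fold, up or down with equal probability. Of the 2-fold changes 58.9% were called in both arms, and of the 4-fold changes 85.1%. Of the calls 1.4% were false. Larger or one-sided changes, as in the data, were not simulated. The members, gene lists and tests were chosen with earlier results of these data known. Some genes of the panel are not reported here and were left out of the gene lists. Named genes were the 4 markers, the 12 largest changes each way with a mean of at least 50 reads, the listed genes, and 5 arm differences each way; CYP2B6, OCLN, GRHL3, GREB1L and the genes of single libraries were chosen after their values were seen.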

Additional observations from a re-analysis of the deposited data

Results flagged for a closer look

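In 8 of 73 genes with at least 10 reads in every hESC library (11%), 1 of the 4 hESC libraries stood apart from the other 3, more than Dixon's critical value allows, and chance gives about 1 in 20 groups. On the log2 CPM scale, hESC replicate 1 stood apart in CD9 at 12.2, in DNMT3B at 11.6 and in GRIN1 at 2.99. Replicate 2 stood apart in KDR at 7.93 and in OLIG2 at 5.01, replicate 3 in DPPA4 at 11.8, and replicate 4 in CDKN1A at 6.24 and in COL2A1 at 4.98.

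The level differed between the arms in 36 of the 119 genes examined, by the direct test of CEPT EB against Y-27632 EB in edgeR (adjusted p under 0.05), 21 higher and 15 lower in CEPT EB. The genes examined include the 5 each way that were named for the size of this difference, so the count is partly set by that choice. Over all tested genes the share was 116 of 423 (27.4%). The log2 differences of CEPT EB minus Y-27632 EB above 0 were POU5F1 3.08, MACC1 2.7, NPPB 2.18, ANXA1 2.16, GRIN1 1.99, EPCAM 1.42, IFITM1 1.14, OTX2 1.08, SLC17A6 0.98, MT1F 0.91, DDIT3 0.88, FZD5 0.88, SIX3 0.82, RANBP3L 0.79, S100B 0.79, CDKN1A 0.75, FAS 0.59, SST 0.53, ZFP42 0.28, GADD45A 0.24 and LIN28B 0.15. Those below 0 were NRCAM -0.90, OLIG2 -0.89, PKDCC -0.63, SPARC -0.57, ODC1 -0.48, PDGFRB -0.46, SOX10 -0.41, PAX3 -0.39, NEUROD1 -0.39, SYP -0.36, DLL1 -0.31, NGFR -0.30, SNAI2 -0.29, FOXD3 -0.29 and SOX2 -0.26. The POU5F1 value, the largest of these, compares levels near the detection limit. Scaling moved the differences, and those of GADD45A, LIN28B and ZFP42 changed sign under at least 1 other scaling.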

How the results depend on the processing

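Reference gene scaling moved 2 counts: 79 genes were lower in both arms and 191 differed between arms. Restricting the test to genes with 10 reads or more in each library left 253 genes, with 200 called in both arms, 115 higher and 85 lower, 214 in CEPT EB, 212 in Y-27632 EB, 75 between arms and 137 at 2-fold, since fewer genes were tested. A test against a fold change of 2 gave 70 lower and 2 between arms. With reference gene scaling the Y-27632 EB differences of SALL4 and SOX2 turned to 0.0283 and 0.0124. DESeq2 called 303 genes, 155 higher and 148 lower, with 281 of the 303 genes called by edgeR kept.

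Leaving out each library in turn gave 292 to 307 called in both arms, 163 to 180 higher, 122 to 133 lower, 315 to 329 in CEPT EB, 308 to 328 in Y-27632 EB, 102 to 125 between arms, 235 to 243 at 2-fold and 227 to 239 without overlap, and no called gene changed direction.

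Same-numbered EB libraries correlated at -0.325 to 0.343 (median 0.01, 3 of 16 pairs over 0.1, 1 best with its own number, replicate 15). The median for different numbers was 0.009, so the numbers were not treated as a pairing. Whether some same-numbered libraries share a culture or plate was not tested. With the replicate number as a block, 284 genes were called in both arms, 167 higher and 117 lower, 313 in CEPT EB, 304 in Y-27632 EB and 101 between arms.

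Over named genes and settings, 11812 values kept direction and call, 139 lost the call, 19 gained it and 2 reversed. The other scalings for the directed cultures and single probes, and the values without the highest library of an arm, were added after seeing the data. Genes at 0 to 3 hESC reads have no measurable hESC level at this depth, so the size of their rise is a bound or a wide interval.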
